A study of Rattus norvegicus with 82 samples.

Results

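The genes of the circadian clock are described here in heart muscle cells of the rat. They are 10 genes chosen by symbol, and all 10 were found among the 17337 genes of the count table and were among the 11954 genes with enough counts to be tested. Hearts of 41 rats were digested with collagenase, cardiomyocytes of the right (RV) and of the left ventricle (LV) were collected apart, and their RNA was sequenced after removal of ribosomal RNA, so that each heart gave a pair of libraries (82 in all). The rats, of both sexes, descended from Wistar Kyoto mothers and Lewis fathers. As weanlings they had received a band on the pulmonary artery (PAB, a load on the RV), a band on the aorta (AOB, a load on the LV) or sham surgery. H denotes compensated and F failing hearts. There were 7 animals in Sham-H and 6 each in PAB-H and AOB-H, which the labels place at 11 weeks of age and 7 weeks after surgery. The F groups comprised 9 Sham-F and 7 AOB-F animals at 31 weeks of age and 26 weeks after surgery, and 6 PAB-F animals at 28 weeks of age and 22 weeks after surgery. These ages are those of the labels, and the study's methods give others. The hour of harvest is not given in the sources used here, so that stage, age and hour cannot be told apart. Both ventricles of an animal share that hour.

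The clock is a feedback loop that runs in nearly every cell, cardiomyocytes included, where it times genes of metabolism and excitability. Arntl (also called Bmal1) and Clock encode the paired activators, which bind E-boxes and switch on the Per and Cry genes, whose proteins return to block them. Nr1d1 and Nr1d2 encode REV-ERB alpha and beta, receptors that repress Arntl through elements called ROREs, and Dbp encodes an output activator that binds D-boxes, so that in a running clock Dbp and Arntl peak at opposite times of day.

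These elements can be read in the promoters. The RefSeq table of rat promoters (build GRCr8) gives a window of 250 bases before to 50 after the start of transcription, and 9 of the 10 genes had at least 1 window, 11 windows in all. The windows were searched on both strands for CACGTG (E-box), TTATGTAA or TTACGTAA (D-box) and TAGGTCA (RORE). Of the 9 genes 3 held one of these, 1 each, and they are shown because each carries a different element of the loop, with the element in capitals.
Arntl, chr1:176766078-176766377, plus strand: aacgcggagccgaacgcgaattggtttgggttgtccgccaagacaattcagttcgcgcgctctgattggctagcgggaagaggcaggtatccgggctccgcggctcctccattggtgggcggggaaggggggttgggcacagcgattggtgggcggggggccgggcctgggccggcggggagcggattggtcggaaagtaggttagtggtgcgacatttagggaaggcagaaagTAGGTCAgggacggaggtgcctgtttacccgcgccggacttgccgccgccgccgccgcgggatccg
Per2, chr9:99496944-99497243, minus strand: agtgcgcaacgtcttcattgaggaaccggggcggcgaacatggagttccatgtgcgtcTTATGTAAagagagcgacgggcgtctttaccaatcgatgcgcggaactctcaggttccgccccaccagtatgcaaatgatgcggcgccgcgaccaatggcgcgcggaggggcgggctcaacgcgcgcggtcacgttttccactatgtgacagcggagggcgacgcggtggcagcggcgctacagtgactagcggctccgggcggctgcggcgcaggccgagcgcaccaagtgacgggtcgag
Nr1d1, the second of 2 starts, chr10:84229405-84229704, minus strand: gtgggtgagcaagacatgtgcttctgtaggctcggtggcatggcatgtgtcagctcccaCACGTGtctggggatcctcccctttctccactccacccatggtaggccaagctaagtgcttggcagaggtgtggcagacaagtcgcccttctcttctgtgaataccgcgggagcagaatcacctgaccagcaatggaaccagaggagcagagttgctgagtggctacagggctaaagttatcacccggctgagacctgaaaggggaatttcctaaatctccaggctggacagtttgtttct
Counted from the start of transcription, the RORE of Arntl spanned bases -16 to -10, the D-box of Per2 bases -192 to -185 and the E-box of Nr1d1 bases -191 to -186. The RORE was held by 2.63%, the D-box by 1.01% and the E-box by 6.42% of all 33469 rat windows. A match describes letters in a window and is no evidence of binding, and the genes without a match may hold elements outside it.

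The depth of a library, as the sum of its gene counts, was 6675287 to 19665439 (median 13074486). Levels of different genes are compared as FPKM (fragments scaled to gene length and library size). Nr1d1 stood highest, with 71.8 ± 28.3 FPKM (SD, n = 82), followed by Dbp with 64.5 ± 44.1, Per1 with 54.7 ± 23.5 and Nr1d2 with 41.1 ± 16.1. Lower levels were found for Cry2 (27.1 ± 8.03 FPKM), Per3 (26.5 ± 14.5), Per2 (13.7 ± 8.20), Clock (12.5 ± 5.25), Arntl (9.69 ± 7.37) and Cry1 (7.58 ± 1.57). Only the step from Per3 to Per2 was seen in nearly every library (78 of 82). At the other steps the gene with the higher mean was above the next in 42 to 60 of the 82 libraries, so that most neighbours in this order did not differ beyond their spread. The genes also differed in how much they varied. Between the lowest and the highest library the normalized count of Dbp spanned a 34.1-fold and that of Arntl a 33.7-fold range, against 17.2-fold for Per3, 13.9-fold for Per2, 7.24-fold for Per1, 6.51-fold for Clock, 6.12-fold for Nr1d1 and 5.99-fold for Nr1d2. The ranges of Cry2 (3.202-fold) and Cry1 (3.12-fold) were the smallest of the 10. Nr1d1 overlaps the end of Thra, which lies on the opposite strand, and whether the counting used strand is not given in the sources used here, so that its level is uncertain.

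**Figure D1:**
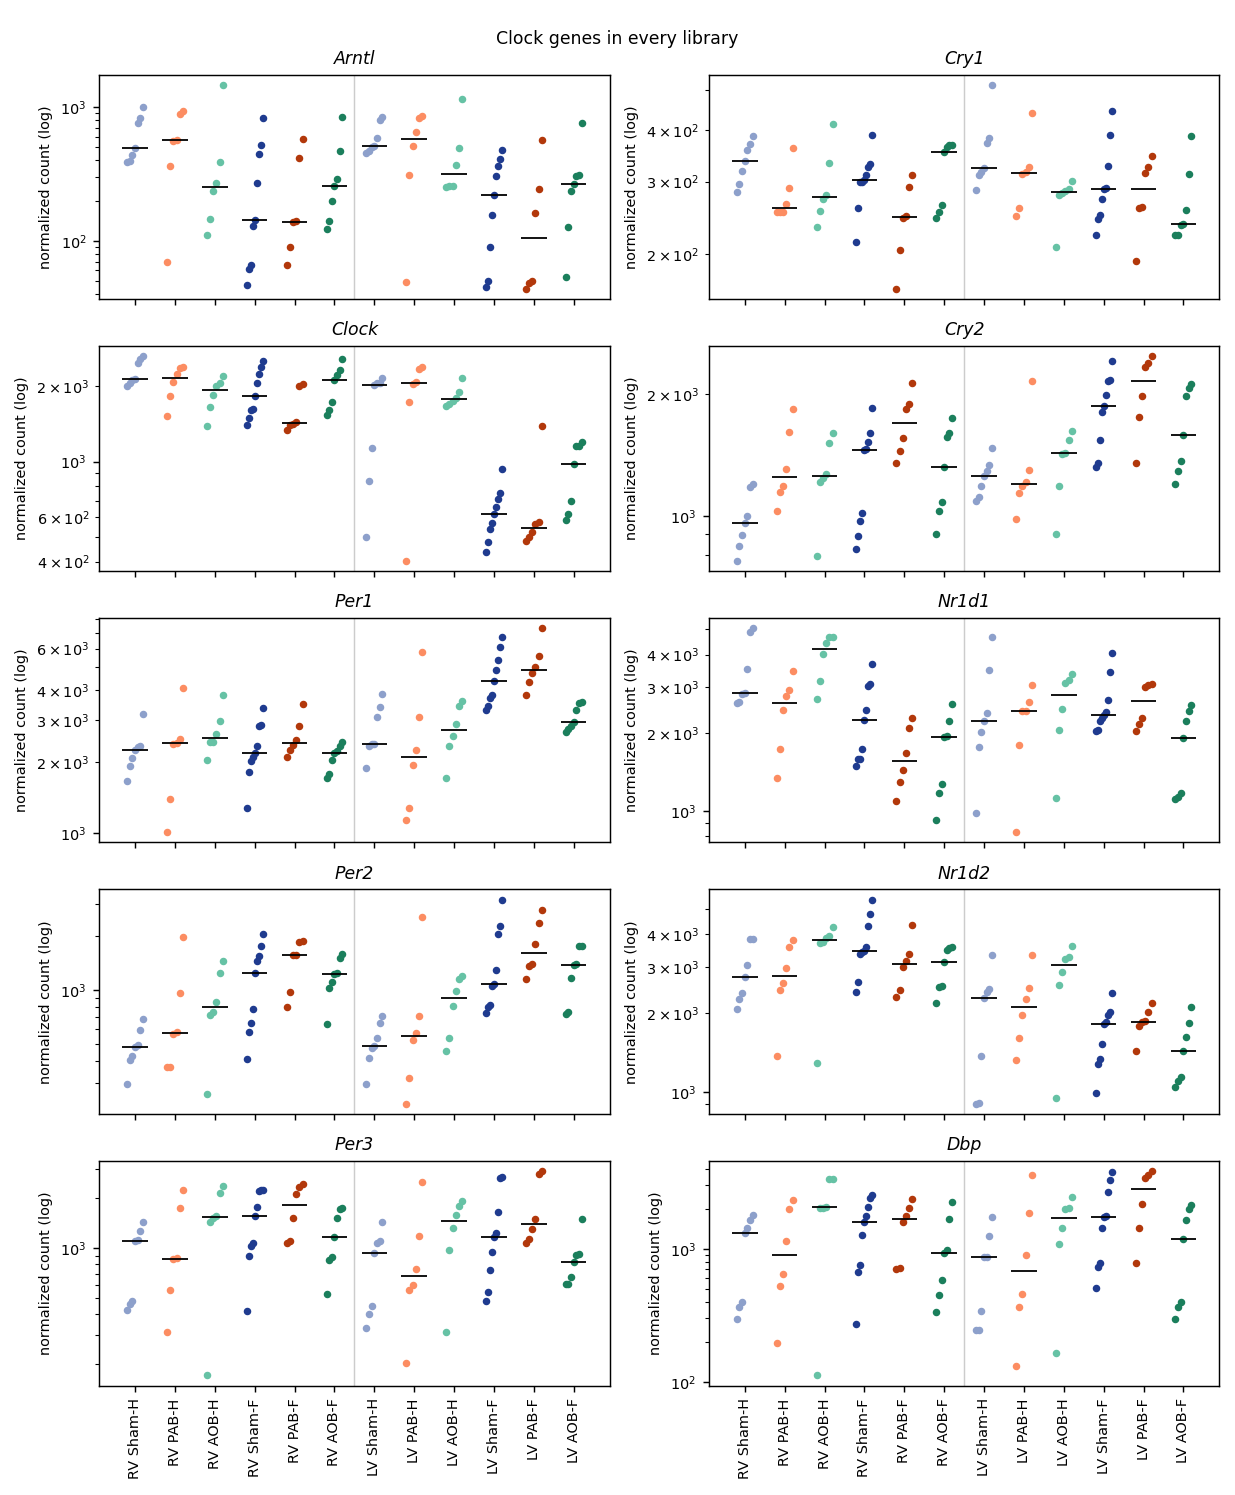
Normalized counts (log axis) of the 10 clock genes in all 82 libraries, by group, with RV groups on the left and LV groups on the right of each panel; each point is a library and each line the median of its group. Dbp and Arntl spread over more than 30-fold, and the Clock counts of the LV libraries of the F groups lie mostly below those of the RV.

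Some libraries stood apart. On the first principal component of the log2 CPM values (counts scaled to library size) of all tested genes, which held 46.96% of the variance, 21 of the 22 LV libraries of F animals scored below -0.05, whereas 0 RV libraries did. Of the H animals, 4 LV libraries also scored there (Sham-H replicates 4 and 5 with -0.188 and -0.0918, PAB-H replicate 2 with -0.165 and AOB-H replicate 6 with -0.0624), on the side of the LV libraries of F animals. After the group means were subtracted, Clock in the LV libraries followed this component (r = 0.874 over 41 libraries, a description without a test, since each library gives both values), as did, less closely, Nr1d2 (0.505), Per1 (-0.455), Cry2 (-0.450) and Arntl (0.368). For Dbp (-0.129) and Per3 (0.035) the relation was weak. For cell markers in the same LV libraries the mean log2 CPM of each list was used, with the group means subtracted. The component went with the markers of mural cells (-0.647), fibroblasts (-0.638), endothelial cells (-0.573), macrophages (-0.546) and atrial cardiomyocytes (-0.125). It went in the opposite direction with those of ventricular cardiomyocytes (0.388). In Sham-F the markers of ventricular cardiomyocytes summed to 89435 to 115534 CPM in the LV and to 113590 to 148984 CPM in the RV, and they were higher in the RV in 9 of 9 animals. The part of this component in the results below was not tested. Calls of clock genes that change when those 4 animals are left out are given beside the results.

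The main contrast in these genes lay between animals of the same group. The question was whether the libraries of an animal shared a level that set it apart from its group, and an edgeR quasi-likelihood F test of all animal terms (Benjamini-Hochberg adjustment over all tested genes) called 9 of the 10 clock genes, compared with 27.7% of all tested genes. Ranked by p among the 11954 genes, Dbp came at place 2, Arntl at 4, Per2 at 14, Per3 at 19, Cry2 at 45, Nr1d2 at 85, Nr1d1 at 96 and Per1 at 102. Cry1 was called much further down, at place 1743 (adjusted p = 0.0086 by edgeR). Clock did not pass (adjusted p = 0.090 by edgeR). Without the 4 animals above, 10 of 10 were called (20.1% of all genes). In sham-operated animals alone 8 of 10 passed (3.88% of all genes), in the H animals 8 (15.1%) and in the F animals 10 (14%), so that most of the genes passed in each of these subsets, although Cry1 did not in the shams (adjusted p = 0.11 by edgeR) or in the H animals (adjusted p = 0.26).

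The animals at the extremes show what this variation looked like. Both animals described here were among the 4 with an LV library that stood apart. AOB-H replicate 6 had the highest summed endothelial markers of its groups (5592 CPM in the LV and 2685 CPM in the RV, group medians 1611 and 872). PAB-H replicate 2 had the highest summed fibroblast markers of RV PAB-H (3035 CPM, group median 524). The part of this in their clock gene counts was not tested. In AOB-H replicate 6 the normalized count of Dbp was 112 in the RV and 164 in the LV, whereas the 5 other AOB-H animals lay between 2018 and 3366 in the RV and between 1077 and 2448 in the LV. In the same animal Arntl reached 1472 in the RV and 1159 in the LV, the highest counts of its groups. PAB-H replicate 2 was the mirror image, with Arntl at 69.8 in the RV and 48.9 in the LV, where the 5 others held 365 to 930 and 309 to 861. Its Dbp counts, 2336 in the RV and 3567 in the LV, were the highest of their groups. Both ventricles of an animal thus stood on the same side of their groups for an activator and for an output gene that moved in opposite directions.

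Agreement between the ventricles was measured for each gene as the correlation over the 41 animals of log2 CPM in the RV with that in the LV, with the group means subtracted, and p by 100000 permutations of the animals within their condition (two-sided; the smallest p these can give is 1e-05). Dbp agreed best, with Pearson r = 0.940 and Spearman rho = 0.916 (permutation p = 1e-05 for each), and r = 0.942 without the 2 animals farthest from the median. For Arntl r was 0.910 and rho 0.909 (permutation p = 1e-05 for each), and r = 0.909 without the 2 farthest animals. Over all genes the median r was 0.256, and Dbp and Arntl ranked 4 and 5 of 11954.

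The Per genes, which encode the timed repressors, followed. Per3 had r = 0.848 and rho = 0.820, and Per2 r = 0.847 and rho = 0.849 (permutation p = 1e-05 for each). Per1 had r = 0.729 and rho = 0.601 (permutation p = 5e-05 and 0.00026), falling to r = 0.601 without the 2 farthest animals. Cry2, a partner of the PER proteins in repression, had r = 0.830 and rho = 0.824, Nr1d2 had r = 0.775 and rho = 0.715, and Nr1d1 had r = 0.744 and rho = 0.744 (permutation p = 1e-05 for each). Thus 8 of the 10 genes had an r over 0.7, which 1.65% of all tested genes reached. Cry1 (r = 0.466, rho = 0.437, permutation p = 0.0043 and 0.0078; r = 0.365 without the 2 farthest) and Clock (r = 0.409, rho = 0.441, permutation p = 0.0055 and 0.0033; r = 0.317 without the 2 farthest) agreed less and held places 2077 and 2959. With the family of 100 relations described further on, the adjusted p values of these 10 lay between 2.9e-05 and 0.010.

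**Figure D2:**
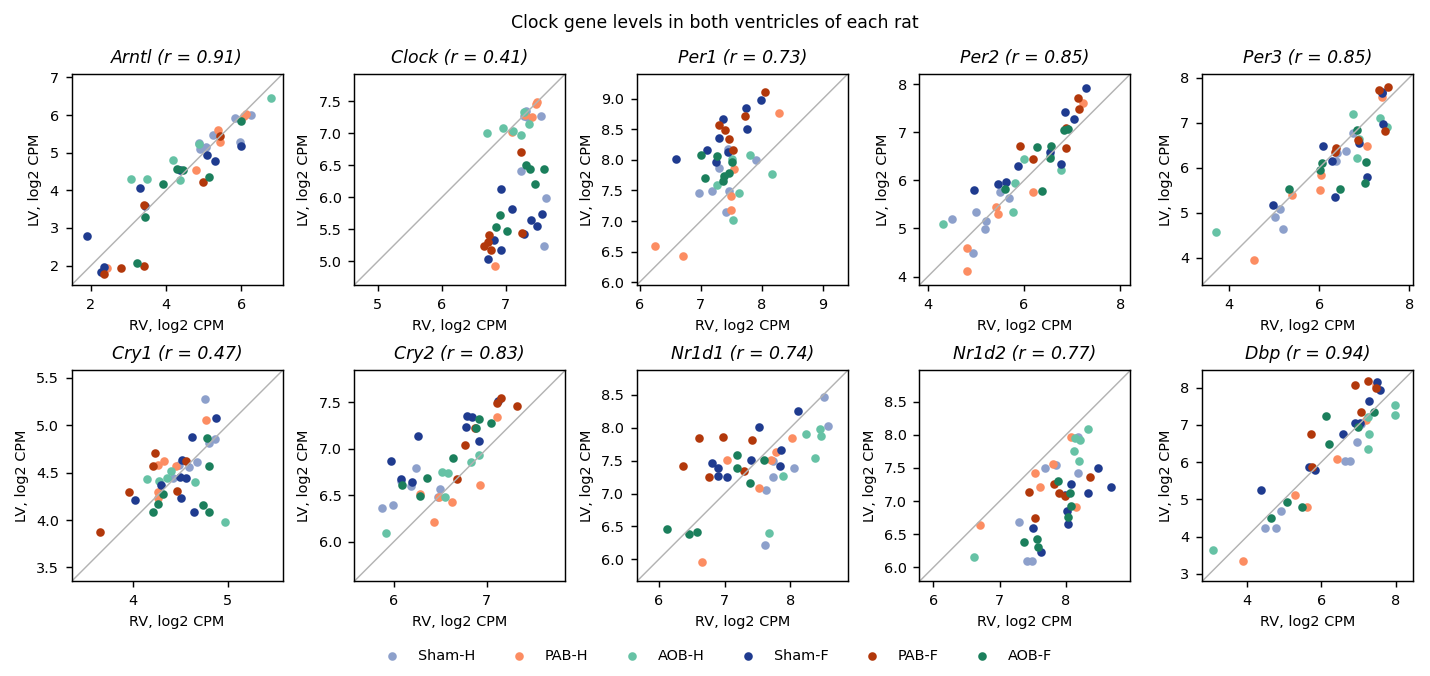
Level of each clock gene in the RV (x axis, log2 CPM) and the LV (y axis, log2 CPM) of the same rat; each point is 1 of 41 animals, coloured by condition, the grey line marks equal levels, and r is computed after subtraction of the group means. Dbp (0.94) and Arntl (0.91) lie along the line over their whole range, whereas the Clock points of the F animals lie below it.

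**Figure D3:**
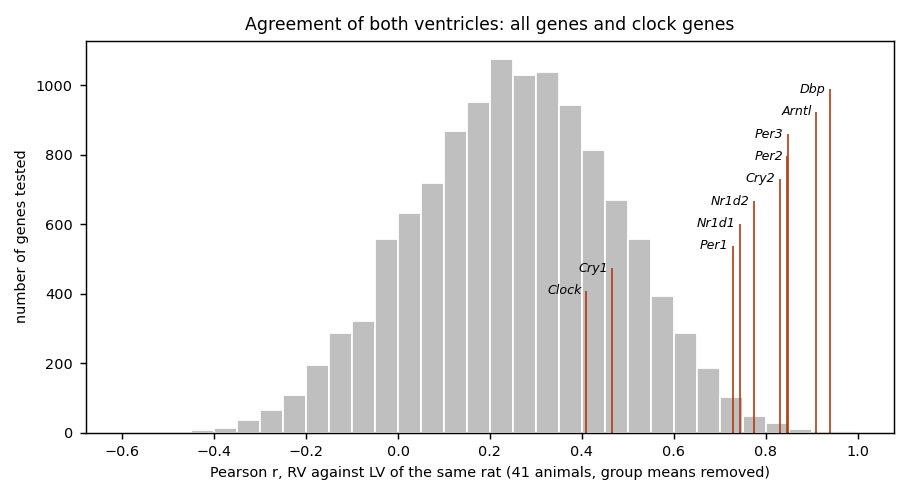
Number of genes (y axis) by Pearson r between the RV and LV of the same rat (x axis, 41 animals, group means removed) for 11954 genes, in bins of 0.05, with red lines at the clock genes (line height has no meaning). The median of all genes is 0.256, and 8 clock genes lie above 0.7.

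Within each of the 6 conditions, r was positive in all 6 for 7 of the genes and lay between 0.889 and 0.979 for Dbp and between 0.770 and 0.995 for Arntl. The exceptions were Cry1 in AOB-H (-0.826, n = 6 animals), Per1 in AOB-F (-0.223, n = 7) and Clock in Sham-H (-0.596, n = 7), values given without a test. For Clock, r over the sham-operated animals alone was -0.076 (permutation p = 0.72), and with the marker scores of ventricular cardiomyocytes, fibroblasts and endothelial cells subtracted 0.23 (permutation p = 0.10). With the first component subtracted it was 0.51. For Dbp these 3 values were 0.97, 0.89 and 0.95, and for Arntl 0.91, 0.89 and 0.90.

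A level in one ventricle also went with other clock genes in the opposite ventricle of the same animal, a comparison in which no pair of values shares a library. All 100 combinations of a gene in the RV with a gene in the LV were correlated, and p values were adjusted over these 100. Of the 90 combinations of different genes 56 had an adjusted p under 0.05 by permutation, 34 positive and 22 negative. The smallest r among them was 0.312 in size, a size that 62 of the 90 and 13.7% of all ordered pairs of different tested genes reached. Of the 45 pairs of genes 23 passed in both orders, 15 with a positive and 8 with a negative sign. By Spearman's rho 50 of the 90 passed.

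The signs of the relations that passed fell by the side of the loop, with exceptions given below. These were RV Nr1d1 with LV Arntl and RV Cry1 with LV Per3 and LV Dbp. Arntl ran against Dbp (r = -0.848 with Arntl read in the RV and -0.704 with Arntl read in the LV, adjusted permutation p = 2.9e-05 for both; rho = -0.842 and -0.777; r = -0.816 and -0.689 without the 2 farthest animals). It ran against Per2 (-0.824 and -0.846) and against Cry2 (-0.820 and -0.801) in the same way. Dbp, read first in the RV and then in the LV, went with Per3 (0.839 and 0.914), with Nr1d2 (0.798 and 0.905) and with Per2 (0.642 and 0.837). Clock read in the RV went with Arntl read in the LV (0.856), and Arntl read in the RV went with Clock read in the LV at a lower r (0.461, adjusted permutation p = 0.0054). Clock read in the RV had r = -0.848 with LV Cry2 and -0.834 with LV Dbp. Clock read in the LV, where it followed the first component, had r = -0.312 with RV Cry2 (adjusted permutation p = 0.048) and -0.245 with RV Dbp (adjusted permutation p = 0.17).

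The REV-ERB genes differed in these values, most clearly when read in the RV, though the difference between them was not tested. With the group means subtracted, Nr1d1 had r = 0.413 with the first component in the RV and 0.147 in the LV. For Nr1d2 these values were 0.280 and 0.505. The part of the component in these relations was not tested. Nr1d2 read in the RV had r = 0.905 with LV Dbp and 0.869 with LV Per3. Nr1d1 read in the RV had r = 0.059 with LV Dbp (adjusted permutation p = 0.75) and 0.091 with LV Per3 (adjusted permutation p = 0.62). Its only passing relation to another clock gene from the RV side was positive, with LV Arntl (0.402, adjusted permutation p = 0.031). By Spearman's rho that relation did not pass (0.332, adjusted permutation p = 0.070). Read in the LV, Nr1d1 passed with RV Nr1d2 (0.673), RV Dbp (0.601) and RV Per3 (0.477, adjusted permutation p = 0.013). With RV Per3 it did not pass by rho (0.328, adjusted permutation p = 0.073). For Cry1, 2 of the 9 relations passed with Cry1 read in the RV, negative with LV Per3 (-0.375) and LV Dbp (-0.370), and 0 of 9 with Cry1 read in the LV.

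**Figure D4:**
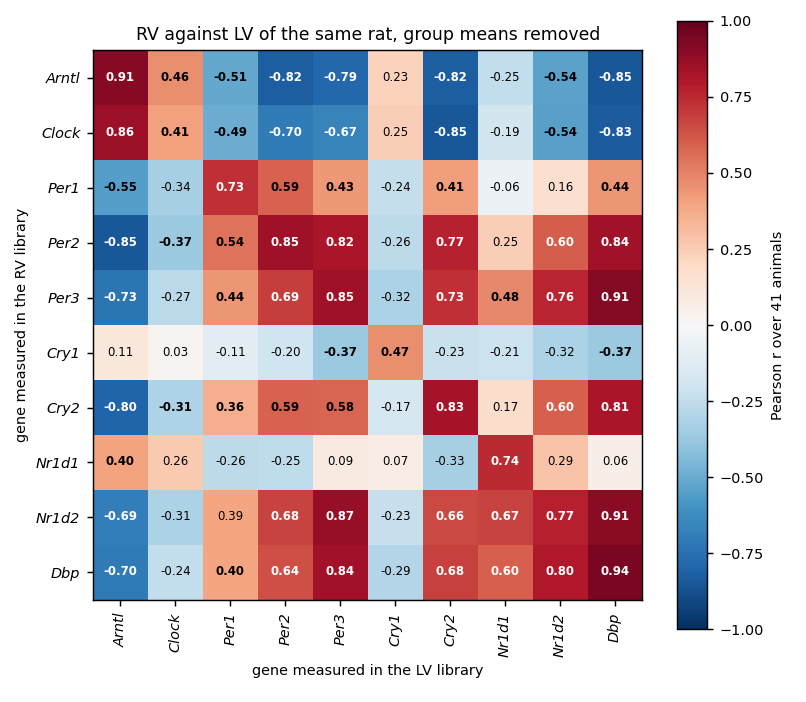
Pearson r over 41 animals between each clock gene in the RV library (rows) and each clock gene in the LV library (columns) of the same rat, group means removed; bold numbers have an adjusted permutation p under 0.05. Arntl and Clock are blue against Per2, Per3, Cry2, Nr1d2 and Dbp, which are red among each other.

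The ratio of Dbp to Arntl (log2 of the FPKM ratio) condenses the opposition of both genes into 1 value per library. It ranged from -2.88 to 6.59 in the RV (median 2.90) and from -1.98 to 7.29 in the LV (median 2.80). Both ventricles of an animal differed by a median of 0.657, with a largest difference of 2.61. In 33 animals Dbp was above Arntl in both ventricles and in 5 below it in both, leaving 3 animals with 1 ventricle on each side. The conditions overlapped widely. The RV of Sham-H animals held -0.928 to 2.90 (median 2.38), of Sham-F animals -0.767 to 6.59 (median 4.46), of PAB-F animals 1.17 to 5.80 (median 4.44) and of AOB-F animals -0.494 to 4.85 (median 1.91).

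Against this variation, banding was compared with sham surgery of the same stage and ventricle. By the labels PAB-F animals were 28 weeks old and 22 weeks after surgery, and Sham-F animals 31 and 26 weeks. In the comparisons of PAB-F, banding cannot be told apart from age and time after surgery. By edgeR with Benjamini-Hochberg adjustment 0 of 10 clock genes were called in each of the 8 comparisons. The share of all genes called was 4.5% in RV PAB-H, 0% in RV AOB-H and in LV PAB-H, 0.0167% in LV AOB-H, 11.1% in RV PAB-F, 0.0669% in RV AOB-F, 0% in LV PAB-F and 12.9% in LV AOB-F. At an unadjusted p under 0.05 the counts of clock genes were, in the same order, 1, 2, 0, 2, 2, 0, 0 and 3. Those of all 11954 tested genes were 2462, 171, 305, 2387, 3332, 517, 454 and 3428. DESeq2 called 0 clock genes in 7 of the comparisons and 1 in LV AOB-F. Its counts over all genes were, in the same order, 656, 0, 0, 35, 1534, 12, 0 and 1735.

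In the directly loaded and failing ventricles the nearest values were small. Cry2 in the RV of PAB-F (1354.5 to 2135 normalized counts, median 1698) was 0.40 ± 0.17 (SE) higher on the log2 scale than in Sham-F (830 to 1854, median 1453), with adjusted p = 0.099 by edgeR. Per1 in the LV of AOB-F (2671 to 3586, median 2934) was -0.58 ± 0.21 (SE) from Sham-F (3314 to 6702, median 4375), with adjusted p = 0.053 by edgeR. The groups overlapped for both genes. Without the 4 animals that stood apart, Cry2 in the RV of PAB-F passed (0.40, adjusted p = 0.049 by edgeR), as did Per1 (-0.58, adjusted p = 0.016) and Clock (0.53, adjusted p = 0.015) in the LV of AOB-F, where 19.1% and 20.9% of all genes were then called. Those 4 were all H animals, so the F groups held the same animals as before and only the shared fit had changed. In RV PAB-H the share of all genes fell to 0.175%, with 0 clock genes called. For Dbp the intervals were wide, since its animals differed so much, and the LV difference of AOB-F from Sham-F was -0.69 ± 0.54 (SE).

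The ventricles were compared within each condition. In the H groups 0 of 10 clock genes were called between RV and LV, with 21% of all genes called in Sham-H, 0.125% in PAB-H and 7.98% in AOB-H. At an unadjusted p under 0.05 there were 3, 0 and 1 clock genes, beside 4357, 1303 and 2392 of all 11954 tested genes. DESeq2 called 1, 0 and 0 clock genes, beside 2846, 39 and 1060 of all genes. With the animal as a block, which removes the variation shared by both ventricles, 5 were called in Sham-H (32.5% of all genes), namely Clock (0.71 ± 0.20, SE), Nr1d2 (0.68 ± 0.12), Nr1d1 (0.56 ± 0.14) and Dbp (0.41 ± 0.15), higher in the RV, and Cry2 (-0.36 ± 0.08), lower. In the same fit Nr1d1 was called in AOB-H (0.69 ± 0.15; 13.7% of all genes) and 0 clock genes in PAB-H (1.51%). Without the animals that stood apart, and without the block, Clock in Sham-H differed by 0.21 ± 0.21 and the share of all genes called there was 2.53%.

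In the F groups the difference between the ventricles involved most genes, clock genes included. In Sham-F 4 of 10 were called, compared with 74.3% of all tested genes, in PAB-F 4 (61.1%) and in AOB-F 3 (67.1%). In this fit, without the block, these shares were below those of all genes. With the animal as a block, described below, 6 were called in Sham-F (77.2%) and 6 in AOB-F (70.6%), again below. In PAB-F 8 of 10 were then called, above the 66.3% of all genes. Clock held 1402 to 2517 normalized counts (median 1823) in the RV of Sham-F and 437 to 933 (median 621) in the LV, without overlap (log2 difference 1.59 ± 0.21, SE; adjusted p = 2e-10 by edgeR). The difference was 1.25 ± 0.25 in PAB-F, where 1 LV library with 1393 counts overlapped the RV, and 1.14 ± 0.23 in AOB-F. Nr1d2 was also higher in the RV, with 2397 to 5409 (median 3455) in Sham-F against 993 to 2392 (median 1818) in the LV (1.13 ± 0.21), with 0.74 ± 0.26 in PAB-F and 1.02 ± 0.24 in AOB-F. Per1 was lower in the RV, with 1281 to 3362 (median 2175) in Sham-F against 3314 to 6702 (median 4375; -1.01 ± 0.20), and by -0.99 ± 0.24 in PAB-F and -0.56 ± 0.22 in AOB-F.

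Clock, Nr1d2 and Per1 thus differed between the ventricles in all 3 F groups, and Cry2 in Sham-F (-0.52 ± 0.15) and Nr1d1 in PAB-F (-0.66 ± 0.28) passed as well. Neither Arntl (0.25 in Sham-F, 95% interval -0.78 to 1.29) nor Dbp (-0.32, 95% interval -1.32 to 0.67) passed. With the animal as a block 6 were called in Sham-F (77.2% of all genes; Per2 with -0.35 ± 0.12 and Dbp with -0.30 ± 0.13 in addition), 8 were called in PAB-F (66.3% of all genes) and 6 in AOB-F (70.6%). The additional genes in PAB-F were Dbp (-0.67 ± 0.16), Arntl (0.53 ± 0.20), Cry2 (-0.25 ± 0.09) and Per2 (-0.33 ± 0.15), and in AOB-F Cry2 (-0.33 ± 0.08), Per3 (0.43 ± 0.18) and Cry1 (0.24 ± 0.11). Markers of other cells were read in the fit without the block, which called 74.3% of all tested genes in Sham-F in either direction. There 6 of 9 tested fibroblast, 6 of 7 endothelial and 4 of 8 macrophage markers were lower in the RV. The summed fibroblast markers held 151 to 507 CPM in the RV against 427 to 1277 CPM in the LV. The endothelial ones held 691 to 1177 against 1730 to 3984 CPM, and the macrophage ones 53.7 to 94.0 against 85.4 to 199 CPM. Of the mural markers 4 of 7 were lower and 1 higher in the RV (summed 873 to 1174 CPM in the RV against 717 to 1203 CPM in the LV), and of the ventricular cardiomyocyte markers 4 of 9 were higher and 3 lower. The summed atrial cardiomyocyte markers held 21.8 to 66.6 CPM in the RV against 154 to 979 CPM in the LV, without overlap, with Nppa lower (-4.05 ± 0.54, SE), Myl7 higher (1.63 ± 0.49) and Myl4 and Sln not passing. Their part in the differences of the clock genes was not tested. In bulk RNA fewer cells of a type and less RNA per cell cannot be told apart.

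The difference between RV and LV was larger in Sham-F than in Sham-H for Clock (by 1.02 ± 0.31 on the log2 scale, SE; adjusted p = 0.0061 by edgeR) and, in the negative direction, for Per1 (-0.71 ± 0.30, adjusted p = 0.046), 2 of 10 genes, compared with 41.6% of all tested genes. With the animal as a block 5 were called (49.8%), adding Nr1d1 (-0.77 ± 0.18), Dbp (-0.71 ± 0.20) and Nr1d2 (0.46 ± 0.16). Without the 4 animals that stood apart, and without the block, 3 were called (53.6%), namely Clock (1.41 ± 0.26), Per1 (-0.87 ± 0.28) and Nr1d2 (0.75 ± 0.27, adjusted p = 0.015 by edgeR). Of the other contrasts between responses (PAB in the RV against the LV, AOB in the LV against the RV, and F against H in each loaded ventricle), 0 of 10 clock genes passed in any of the 4 by edgeR or by DESeq2. The shares of all genes called by edgeR were 0.351% for PAB in the RV against the LV and 0% for the 3 others. DESeq2 called 63 of all genes for PAB in the RV against the LV. It called 36 for AOB in the LV, F against H, and 0 for the others. At an unadjusted p under 0.05 there were 3 clock genes, all for AOB in the LV, F against H. In that contrast 1148 of all 11954 tested genes had such a p.

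Finally, the sham groups of both stages were compared within a ventricle. In the RV 0 of 10 clock genes were called (0.0502% of all genes). At an unadjusted p under 0.05 there were 4, led by Per2 (298 to 683 normalized counts, median 481, in Sham-H and 412 to 2059, median 1235, in Sham-F; 1.27 ± 0.35, SE; adjusted p = 0.22 by edgeR), and DESeq2 called 0. Of all 11954 tested genes 601 had an unadjusted p under 0.05 in the RV, and DESeq2 called 21. In the LV 6 of 10 were called, compared with 57.4% of all tested genes. Per2 was higher in Sham-F, with 742 to 3193 (median 1076) against 298 to 715 (median 482) in Sham-H, without overlap (1.53 ± 0.35). Per1 (0.75 ± 0.21) and Cry2 (0.57 ± 0.16) were higher too. Clock fell from 499 to 2160 (median 2026) in Sham-H to 437 to 933 (median 621) in Sham-F (-1.28 ± 0.22), and Arntl from 452 to 849 (median 512) to 45.02 to 481 (median 219; -1.34 ± 0.55; adjusted p = 0.030 by edgeR). Dbp (1.23 ± 0.55) was at the threshold (adjusted p = 0.049 by edgeR) and did not pass without the 4 animals that stood apart (0.89 ± 0.52, adjusted p = 0.12). In that fit Nr1d2 passed as well (-0.51 ± 0.19), so that 6 were again called (65.9% of all genes).

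The values of Per2 and Arntl moved in like directions in the RV (Arntl -1.14 ± 0.54) and the LV, and the difference between the ventricles in these changes did not pass, though its 95% interval was wide (RV minus LV -0.27, from -1.23 to 0.70, for Per2). Clock, in contrast, differed by -0.26 ± 0.21 in the RV and by -1.28 ± 0.22 in the LV. In the LV between the stages 57.4% of all tested genes were called in either direction. Of the fibroblast markers 5 of 9 tested, of the endothelial 2 of 7 and of the macrophage markers 4 of 8 rose there. The summed fibroblast markers held 244 to 868 CPM in Sham-H and 427 to 1277 CPM in Sham-F. Of the mural markers 4 of 7 rose and 1 fell, of the atrial cardiomyocyte markers 2 of 4 rose, and of the ventricular cardiomyocyte markers 2 of 9 rose and 4 fell. The part of these cells was not tested.

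The study's own criteria combine a mean count above 50 with a log2 change above 1 and a p, not adjusted, no higher than 0.01. By these, applied to the same fit, Clock (1.59), Nr1d2 (1.13) and Per1 (-1.01) were called between RV and LV in Sham-F (3 of 10, with 24.1% of all genes), Clock in PAB-F (1 of 10, with 15.4%) and Clock and Nr1d2 in AOB-F (2 of 10, with 18.2%). Between the sham stages Per2 was called in the RV (1 of 10, with 0.0837% of all genes), and Per2 and Clock were called in the LV (2 of 10, with 7.45%). Clock alone was called in the RV minus LV difference between the sham stages (1 of 10, with 8.47%). In the other comparisons 0 of 10 clock genes were called by these criteria. The shares of all genes there were 2.17% in Sham-H, 0.795% in PAB-H and 2.53% in AOB-H between the ventricles. For banding against sham they were 1.82% in RV PAB-H, 0.0167% in RV AOB-H and in LV PAB-F, 0.0335% in LV PAB-H, 0.209% in LV AOB-H, 1.9% in RV PAB-F, 0.259% in RV AOB-F and 1.21% in LV AOB-F. For the contrasts between responses they were 0.803% for PAB and 0.0335% for AOB between the ventricles at F, and 0.0502% for PAB in the RV and 0.653% for AOB in the LV between the stages.

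**Figure D5:**
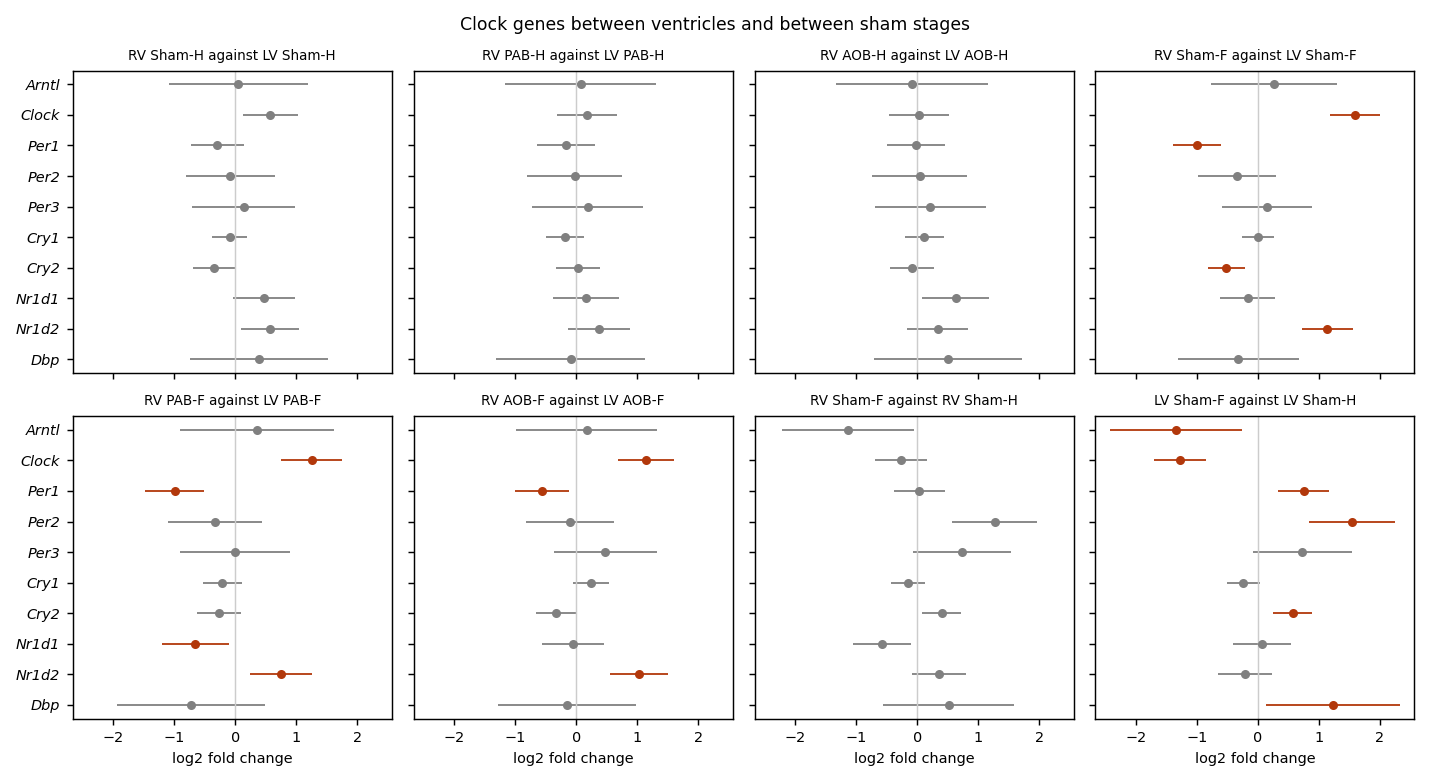
Log2 fold change (x axis) of each clock gene, with 95% intervals of the edgeR fit, for the RV against the LV of each condition and for Sham-F against Sham-H in each ventricle; red marks an adjusted p under 0.05. Clock, Nr1d2 and Per1 are red in all 3 F groups, and 6 genes are red in the LV between the sham stages.

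The wider clock circuit was read in the same test of differences between animals, which called 27.7% of all tested genes. Of the second loop and its repressors 5 of 7 tested genes were called, among them Ciart, a repressor of the activators (place 5 of 11954), Npas2, which can stand in for Clock (15), Bhlhe40 (49) and Nfil3, a repressor at D-boxes (69). Of the PAR bZIP and output genes 7 of 9 were called, led by Tef, a relative of Dbp (7), Pdk4, a brake on glucose oxidation (71), and Wee1, a cell cycle kinase (176). Of the kinases and ubiquitin ligases that act on PER and CRY proteins 1 of 9 was called, Btrc (adjusted p = 0.0027 by edgeR), and Csnk1d stood near the end of the list at place 11839. The median r between the ventricles was 0.757 for the second loop, 0.642 for the output genes and 0.127 for the kinases and ligases, beside 0.256 for all genes.

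Genes of like pattern were ranked by Pearson r with the mean of both ventricles over the 41 animals. Within the clock, Per2 (-0.918) and Cry2 (-0.890) were most opposed to Arntl, and Per3 (0.941) and Nr1d2 (0.900) were closest to Dbp. The ranks that follow leave out the 10 clock genes. Closest to Arntl were Npas2 (0.895), Adam19 (0.862), Ucp3 (0.855), Slc41a3 (0.838) and Trim2 (0.825), and most opposed Tef (-0.858), Stk35 (-0.842), Fam76a (-0.834), Ciart (-0.822) and Ephx1 (-0.779). Closest to Dbp were Ciart (0.951), Tef (0.847), Tcap (0.838), Usp2 (0.825) and Pik3ip1 (0.817), and most opposed Nfil3 (-0.901), Trim2 (-0.846), Npas2 (-0.843), Grip2 (-0.769) and Cdkn1a (-0.730). For Nr1d1 the list was a different one, with Arid3b (0.807), Prkab1 (0.768), Nfatc2 (0.734), Stc2 (0.722) and Acsf2 (0.721) closest and Slit2 (-0.724), Srpx (-0.718), Gda (-0.714), Pla2g2a (-0.713) and Sla (-0.705) most opposed. These are descriptions without a test.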

How the data were processed

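RNA of cardiomyocytes was sequenced in 82 libraries of 41 rats. The authors used Trim Galore, STAR and featureCounts to obtain the raw counts per gene that they deposited, on an older rat build than the GRCr8 of the promoter windows, which were matched by gene and not by position. The deposited FPKM values were also made by the authors and are used here only to compare levels of different genes. The deposited signal columns, counts that the authors normalized with DESeq2 (1.28.1), entered no result. Libraries held 6675287 to 19665439 counts, and the parts of counting error and of the spread between animals in the precision were not tested.

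Here, 1 edgeR (4.0.16, R 4.3.3) quasi-likelihood fit with TMM factors, the genes kept by filterByExpr (11954) and a mean per group gave all contrasts. Calls had an adjusted p under 0.05 (Benjamini-Hochberg over all tested genes), and errors are the log2 fold change over the root of F. Normalized counts are counts over the TMM effective library size, times its mean. Animals were compared by an F test of all animal terms. Correlations used log2 CPM with a prior count of 2. P values of contrasts between groups of different animals rest on the spread between animals. Those of the animal test and of the block rest on the disagreement of both ventricles within animals. Contrasts between RV and LV without the block take both libraries of an animal as independent. RV and LV libraries share an animal by the labels, with a median r of their deviations between 0.186 and 0.297 per condition, so the animal was also fitted as a block. The 10 genes and the lists were chosen with earlier results of these data known. Named are all 10, from each list up to 6 called genes, and for Arntl, Dbp and Nr1d1 the 5 genes outside the 10 most alike and most opposed. Alternatives were RLE factors, no filter, sex, DESeq2 (1.42.0), 2-group fits, the study's criteria (log2 change over 1, p at most 0.01, mean over 50), blocks, each animal left out and, chosen after seeing the data, stages or shams alone, the first component, marker scores, and 4 animals left out. The functions were tested on simulated data.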

Additional observations from a re-analysis of the deposited data

Results flagged for a closer look

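Of 120 sets of values (1 gene in 1 group) 12 had a library farther from the rest than Dixon's 95% value allows, where chance gives about 1 in 20. In AOB-H replicate 6 these were the lowest normalized counts of Dbp (112 in the RV, 164 in the LV), Nr1d2 (1294 in the RV, 950 in the LV; other animals 3689 to 4266 and 2568 to 3607), Per3 (170 in the RV, 312 in the LV; others 1434 to 2389 and 978 to 1939) and Cry1 in the LV (208; others 279 to 301). In PAB-H replicate 2 they were the lowest Arntl (69.8 in the RV, 48.9 in the LV), the lowest LV Clock (404; others 1727 to 2379) and the highest LV Cry2 (2160; others 982 to 1297). The LV library of PAB-F replicate 5 had the highest Clock (1393; others 482 to 577). Thus 11 of the 12 belonged to 2 animals, and both of these had an LV library that stood apart on the first component; the part of that in the values was not tested.

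The difference between RV and LV was not the same in both sham stages for Clock (Sham-F minus Sham-H 1.02 on the log2 scale) and for Per1 (-0.71), by the contrast of the edgeR fit.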

How the results depend on the processing

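Of 187 counts of clock genes under other settings 169 stayed within 1.5 times, and of 317 values of single clock genes 296 kept their direction and call. By the study's 3 criteria 1 gene was called between RV and LV in PAB-F, 1 between the sham stages in the RV and 2 in the LV, and 1 in the RV minus LV difference between sham stages. Without the filter that last count was also 1. In LV AOB-F 1 gene was called with sex as a covariate, by DESeq2 and with the replicate number as a block. Between RV and LV in Sham-H 1 was called by DESeq2 and 1 in the fit to 2 groups, which also called 1 in RV PAB-H. With the animal as a block the counts between RV and LV were 5 in Sham-H, 1 in AOB-H, 8 in PAB-F and 6 in AOB-F, and 5 in the difference between sham stages. Replicate numbers of different animals share only the number (r from -0.446 to 0.452), and that block moved no other count beyond 1.5 times. The call of Dbp in the LV between the sham stages ended with that block (1.07), without the filter (1.19, adjusted p = 0.067), with sex as a covariate (1.17, adjusted p = 0.054), without the 4 animals apart (0.89) and by the study's criteria. Without the 4 animals apart RV PAB-F gave 1 called gene and LV AOB-F gave 2. Clock turned its sign between the ventricles in sham animals alone (r = -0.076). The causes were not tested.

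With each animal left out in turn, at the dispersions of the whole fit, the counts ranged from 0 to 2 in LV AOB-F (Sham-H 4, PAB-H 2, 3 or 5, Sham-F 3, 6 or 8, AOB-F 3 or 4 or PAB-F 1 left out), from 0 to 1 in RV PAB-F (1 without Sham-F replicate 1), from 0 to 2 between RV and LV in Sham-H (Sham-H 1, 2 or 7, AOB-H 6, PAB-H 2 or PAB-F 5 left out) and from 1 to 2 in the difference between sham stages (Sham-H 1, 2, 3, 6 or 7, PAB-H 4 or Sham-F 1, 2, 5, 6, 7 or 9 left out). Between the sham stages in the LV, Dbp (1.03 to 1.55) lost its call in 24 of 41 and Arntl (-1.54 to -1.21) in 5, without Sham-H replicate 3 or 5 or Sham-F replicate 1, 5 or 9. Nr1d1 between RV and LV in PAB-F (-0.79 to -0.55) lost it without replicate 1, 4 or 6, Per1 in AOB-F (-0.60 to -0.48) without replicate 2 or 3, and Per1 in the difference between sham stages (-0.80 to -0.64) in the same 12 as that count. The lowest raw count of a clock gene was 38 (Arntl), and the part of depth in these results was not tested.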

Other observations

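Genes outside the clock circuit that respond to hormones or handling were read in the same test of differences between animals of a group (27.7% of all genes called). Of the glucocorticoid-responsive genes 9 of 9 tested were called, Per1 of the clock among them. Zbtb16, a transcription factor, stood at place 24 of 11954 (r between the ventricles 0.84), Fkbp5, a regulator of the glucocorticoid receptor, at 51 (0.77) and Mt2A, a metallothionein, at 80 (0.78). Of the immediate early genes 9 of 10 were called, with Egr2 at 562 (0.57) and Junb, a part of the AP-1 factor, at 629 (0.59). Of the temperature-responsive genes 3 of 8 passed, the chaperone genes Hspa1a at 355, Dnajb1 at 514 and Hspa1b at 738. That list also held Cirbp and Rbm3, which encode cold-inducible RNA-binding proteins and did not pass. The median r between the ventricles was 0.69 for the glucocorticoid-responsive genes, 0.50 for the immediate early genes and 0.43 for the temperature-responsive genes, beside 0.80 for the 10 clock genes. Marker lists varied between animals too. Of the markers 6 of 9 tested for fibroblasts, 6 of 7 for endothelial cells, 5 of 7 for mural cells, 8 of 8 for macrophages, 4 of 4 for atrial cardiomyocytes and 5 of 9 for ventricular cardiomyocytes were called, with median r between 0.27 and 0.49.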
